A study of Mus musculus with 12 samples.

Results

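The axon regeneration-associated genes followed here are Gap43, Stmn2, Basp1, Gal, Npy, Vip, Arg1, Sprr1a, Sox11 and Cap1. They were taken as the probe sets whose only gene symbol in the array annotation is 1 of these names, which gave 12 probe sets for 10 genes among 20380 probe sets for 12393 genes. Stmn2 and Cap1 have 2 probe sets each and the other genes have 1. The tissue was spinal cord of female C57BL/6 mice, wild type and 10 weeks old, and the RNA was hybridised to 12 Affymetrix arrays. The injured mice had laminectomy and a cut through 80% of the cord, and the sham mice had the laminectomy alone and are called naive in the sample titles. A piece of cord of 2.5 cm centred on the site was taken 9 hours after the operation. Part of each Dounce lysate gave total RNA and the remainder was spun through a sucrose gradient to recover RNA bound to polysomes, the ribosome-loaded form of mRNA. There were 4 groups with 3 biological replicates each. These were polysome-bound RNA from injured cord, polysome-bound RNA from sham cord, total RNA from injured cord and total RNA from sham cord. The p-values measure the spread between arrays of a group, in 1 estimate shared by all 4 groups.

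Neurons of the peripheral nervous system switch on a set of genes when their axons are cut, and this set is known for accompanying regrowth. It includes growth-cone proteins that act on the membrane skeleton and on microtubules (Gap43, Basp1, Stmn2), neuropeptides that are low in intact sensory neurons (Gal, Vip, Npy), a small proline-rich protein shared with skin (Sprr1a), a transcription factor (Sox11), an enzyme of arginine breakdown that feeds polyamine synthesis (Arg1) and an actin-recycling protein (Cap1). Neurons within the cord mount this programme weakly, and the cord segment also holds glia, vessels and blood-borne cells. In bulk tissue, fewer cells of a type and less RNA per cell cannot be told apart. Dorsal root ganglion neurons, in which much of this programme was described, lie outside the cord, and of 2 of their markers measured Avil was above background on 7 of the 12 arrays and Scn10a on 0.

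The promoters of Sprr1a and Gal are shown because their transcripts, both known to rise in axotomised sensory neurons, differed here in detection. Gal was above background on all 12 arrays and Sprr1a on 4. A link between promoter letters and detection was not tested. The sequences are those of RefSeq for build GRCm38.p6, from 250 bases before to 50 bases after the annotated start, and 7 of the 10 genes were matched. They were searched on both strands for the letters TGANTCA (AP-1), TGACGTCA (CRE), TTCNNNGAA (STAT) and AACAAT (Sox). The Sprr1a promoter (chr3:92485832-92486131, minus strand) holds 2 AP-1 matches, which begin at -146 and -116 from the start and are in capitals. The Gal promoter (chr19:3414495-3414794, minus strand) holds none of the 4, so it has no capitals.
Sprr1a: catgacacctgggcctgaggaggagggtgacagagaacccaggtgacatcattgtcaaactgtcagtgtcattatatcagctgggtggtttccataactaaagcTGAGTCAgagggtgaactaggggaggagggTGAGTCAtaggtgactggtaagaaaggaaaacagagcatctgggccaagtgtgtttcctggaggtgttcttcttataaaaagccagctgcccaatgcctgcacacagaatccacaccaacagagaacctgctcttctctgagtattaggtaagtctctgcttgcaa
Gal: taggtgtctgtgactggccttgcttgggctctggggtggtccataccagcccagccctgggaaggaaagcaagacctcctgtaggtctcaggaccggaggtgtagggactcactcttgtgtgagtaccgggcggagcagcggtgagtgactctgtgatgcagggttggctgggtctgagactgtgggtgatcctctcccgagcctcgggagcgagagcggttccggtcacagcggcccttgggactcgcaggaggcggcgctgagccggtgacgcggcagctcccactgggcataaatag
Of 32851 promoters of 300 bases, 7.81% held an AP-1 match, 1.79% a CRE match, 8.30% a STAT match and 10.7% a Sox match. The Cap1 promoter held 1 STAT match at -199, and those of Npy, Vip, Sox11 and Basp1 held none of the 4. A match is a run of letters and not a binding site.

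The deposited values are on a log2 scale and were used as they are. Arrays of a group correlated at 0.994 to 0.998 across probe sets, which are not independent replicates. Array weights estimated by limma were lowest for injured polysome replicate 1 (0.262) and replicate 2 (0.468) and lay between 0.918 and 1.72 elsewhere. The excess of the 3′ over the 5′ Gapdh control probe set, which grows as RNA or labelled copies shorten, was 2.83 ± 0.27 on injured polysome arrays and 0.87 ± 0.03 on sham polysome arrays. In total RNA it was 1.40 ± 0.22 on injured arrays and 0.23 ± 0.05 on sham arrays (log2, mean ± SD, n = 3). Bacterial transcripts added to every hybridisation averaged 10.37 ± 0.05 on injured and 10.81 ± 0.04 on sham polysome arrays, and 10.45 ± 0.08 on injured and 10.99 ± 0.15 on sham total RNA arrays, so that the overall level between operations depends on the authors' scaling. In both measures the injured arrays lay apart from the sham arrays (exact permutation p = 0.1 each, two-sided, the smallest that 3 against 3 allows). These shifts run with the operation, and their part in the results below was not tested.

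A probe set was counted as above background where it exceeded every one of 27 probe sets for Bacillus subtilis transcripts that were not in the sample. This level was taken on each array and was not the same in all groups. It averaged 6.44 on injured and 6.46 on sham polysome arrays, and 6.85 on injured and 7.04 on sham total RNA arrays. Of the 12 probe sets of the regeneration genes, 7 were above background on all 12 arrays: those of Gap43, Gal, Npy, Vip and Basp1 and both of Stmn2. Arg1 was above it on 7 arrays, Cap1 probe set 1417461_at on 7 and Sprr1a on 4. Sox11 and Cap1 probe set 1417462_at were above it on no array. The measurements of the growth-cone and neuropeptide genes therefore rest on signal above background. Vip was the closest of them to it, on average 0.73 above in injured and 0.52 in sham total RNA. The measurements of Sprr1a, Sox11 and Cap1 lie at the edge of what the arrays detect.

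**Figure D1:**
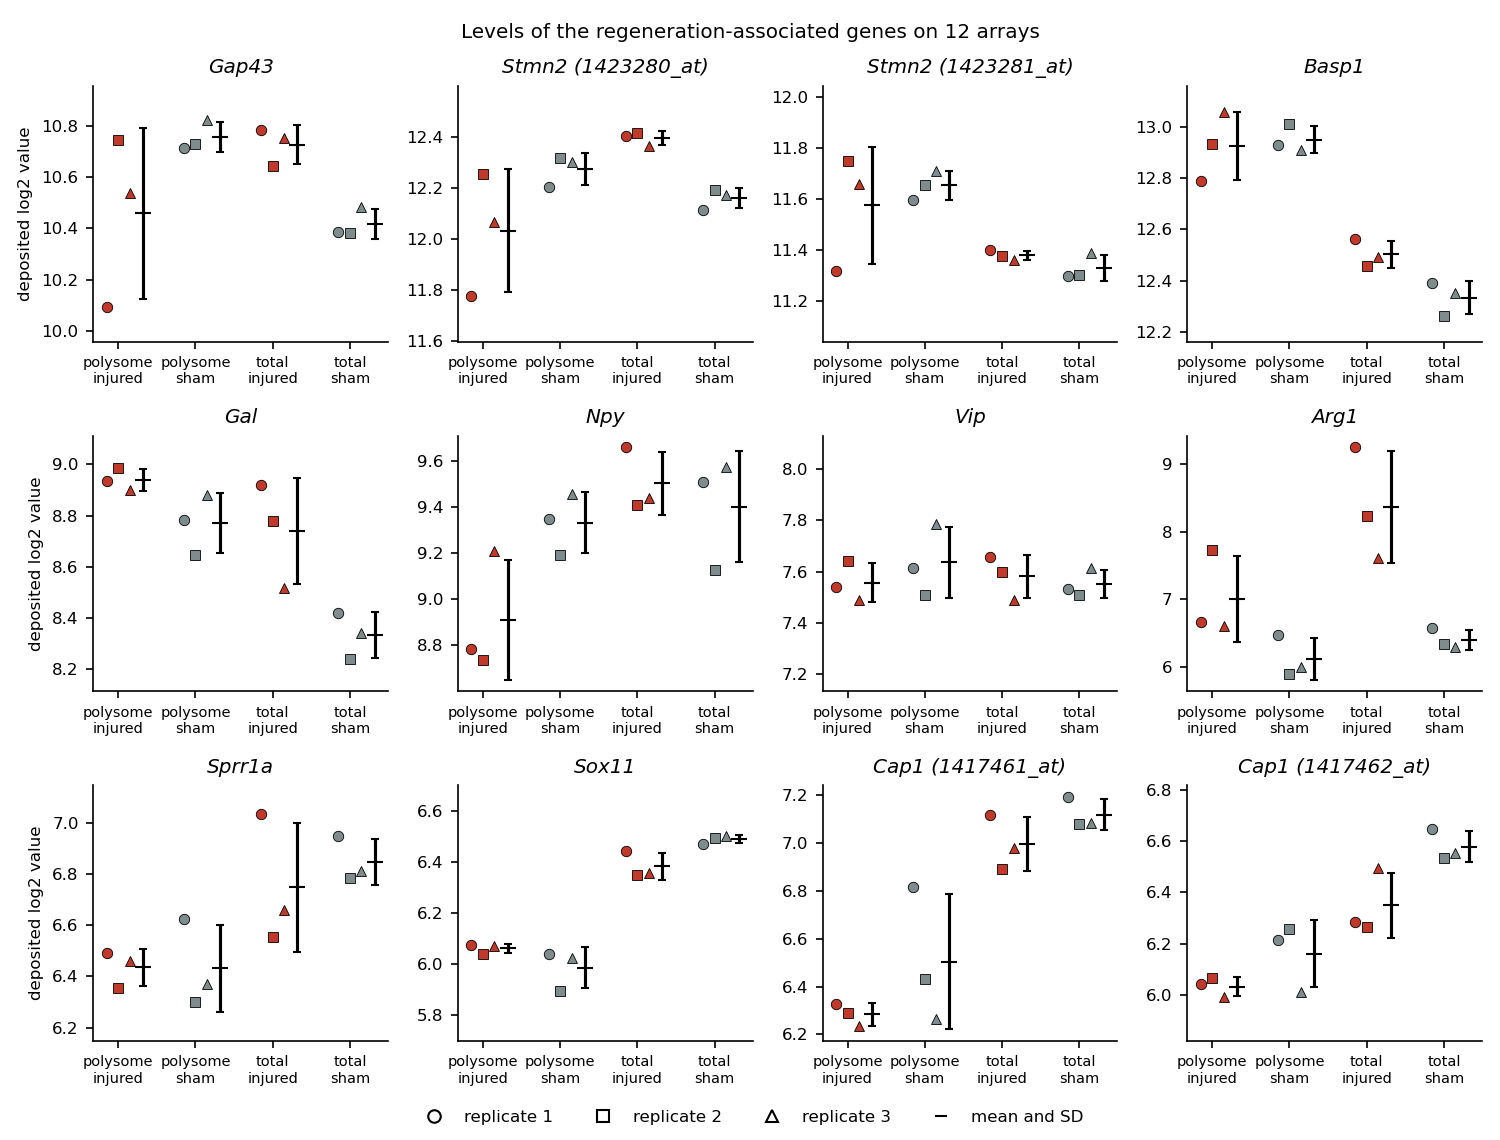
Deposited log2 values of the 12 probe sets in the 4 groups; each point is 1 array (shape gives the replicate number, red injured, grey sham) and the bar beside it is the mean ± SD of 3 arrays. Gal and Arg1 stand higher on every injured than on every sham total RNA array, and injured polysome replicate 1 is the lowest of its group for Gap43, Stmn2 and Basp1.

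In total RNA, 9 hours after the cut, the transcripts of Arg1 and Gal were higher in injured cord, and small rises were measured for Gap43, Stmn2 and Basp1. Of the 12 probe sets, 5 rose, 1 fell and 6 did not pass the test (limma, adjusted p below 0.05). Without overlap between the groups, 5 were higher and 2 lower, against 37.9% and 31.7% of all probe sets. The share called is to be read against 30.6% of all probe sets that rose and 27.0% that fell, so that rising as such does not set these genes apart. The median difference was 0.08 over the 12 probe sets and 0.01 over all probe sets on the log2 scale. The size sets Arg1 apart from the rest: its difference lay at the 99.9th percentile of all probe sets, that of Gal at the 90.4th and those of Gap43, Stmn2 and Basp1 at the 83.2nd, 75.2nd and 68.3rd.

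Gap43, a membrane protein of growth cones that binds calmodulin and acts on actin at the membrane, had log2 values of 10.79, 10.64 and 10.76 in injured total RNA and 10.38, 10.38 and 10.48 in sham total RNA. Every injured array was above every sham array. The rise was 0.31 (SE 0.12, limma adjusted p = 0.0338), or 1.24-fold. The call was lost when any 1 of 4 total RNA arrays was left out (injured replicate 1 or 3, sham replicate 1 or 2), with differences of 0.28 to 0.30, and the difference was 0.02 after quantile normalization of the arrays.

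Stmn2, also known as SCG10, encodes a stathmin that binds tubulin and is carried into axons. Its probe set 1423280_at read 12.40, 12.42 and 12.36 in injured total RNA and 12.11, 12.19 and 12.17 in sham total RNA, again without overlap. The rise was 0.23 (SE 0.09, limma adjusted p = 0.0330), but leaving out any 1 of the 6 total RNA arrays ended the call, with 0.21 to 0.25. The spread in this test is shared by all 4 groups. For this probe set the SD was 0.03 in injured and 0.04 in sham total RNA, against 0.24 on injured polysomes. Its other probe set, 1423281_at, gave 11.40, 11.38 and 11.36 in injured and 11.30, 11.30 and 11.39 in sham total RNA. Those groups overlapped and the difference was 0.05 (limma adjusted p = 0.632), so the 2 probe sets of this gene disagreed on a rise. After quantile normalization over all arrays the differences were -0.0029 and -0.22, the second of them called.

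Basp1, also known as CAP-23 and NAP-22, is a membrane-anchored protein that acts like Gap43 in nerve sprouting. It read 12.56, 12.46 and 12.49 in injured total RNA and 12.39, 12.26 and 12.35 in sham total RNA. The groups did not overlap and the rise was 0.17 (SE 0.06, limma adjusted p = 0.0349), or 1.12-fold. The call was lost on leaving out 1 of 4 total RNA arrays (injured replicate 1 or 3, sham replicate 2 or 3), with 0.13 to 0.18, and after quantile normalization over all arrays the difference was -0.068. Markers of neurons did not move one way with these genes: of 8, 4 rose and 4 fell in total RNA, and their mean level was 9.41 to 9.51 on injured and 9.53 to 9.65 on sham total RNA arrays.

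Of the neuropeptide genes, Gal alone passed the test in total RNA. Galanin, its product, is a peptide that modulates pain transmission in the dorsal horn. Gal read 8.92, 8.78 and 8.52 in injured total RNA and 8.42, 8.24 and 8.34 in sham total RNA, without overlap, although injured replicate 3 was close to sham replicate 1. The rise was 0.41 (SE 0.09, limma adjusted p = 0.00204), or 1.32-fold. It was called under all 23 alternative settings, with 0.28 to 0.95, and in every fit that left out 1 array, with 0.31 to 0.52. Npy, which encodes neuropeptide Y, an inhibitory peptide of dorsal horn interneurons, read 9.66, 9.41 and 9.44 in injured and 9.51, 9.12 and 9.57 in sham total RNA. Those groups overlapped, with a difference of 0.10 (95% confidence interval -0.18 to 0.38, limma adjusted p = 0.518). Vip, which encodes vasoactive intestinal peptide, ranged from 7.49 to 7.66 on injured and from 7.51 to 7.61 on sham total RNA arrays, a difference of 0.03 (-0.12 to 0.18, adjusted p = 0.734 in limma).

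Arg1 had the largest difference of the 10 genes. Arginase 1 turns arginine into ornithine, the precursor of polyamines, and it is made by macrophages in wounds and, in rats, by sensory neurons treated with cyclic AMP. Arg1 read 9.25, 8.23 and 7.61 in injured total RNA and 6.57, 6.33 and 6.30 in sham total RNA. All 3 injured arrays were above all 3 sham arrays, but they spread over more than 1 log2 unit, so the direction was measured better than the size. The difference was 1.97 (SE 0.33, limma adjusted p = 0.000205), with group means of 8.37 ± 0.83 in injured and 6.40 ± 0.15 in sham total RNA (SD, n = 3). No sham total RNA array had Arg1 above background. Set against the lowest signal that counted as above background on those arrays, the injured mean of Arg1 was at least 2.51-fold higher in the deposited values. That bound rests on a mean with an SD of 0.83 and not on each injured array. The rise was called under all 23 alternatives, from 1.52 to 2.51, and was 1.52 without injured total replicate 1.

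Markers of monocytes and macrophages rose as well, and so did markers of some other cells. Of 6 monocyte and macrophage markers measured, 4 rose and 0 fell in total RNA, against 35.0% and 23.0% of all genes. Cd14 rose by 2.27, Msr1 by 1.14 and Mrc1 by 0.68. The mean level of the 6 was 8.16, 8.30 and 8.09 on injured replicates 1 to 3, against 7.46, 7.35 and 7.44 on the sham arrays. Within the injured group the array with the highest Arg1 was not the one with the highest marker level. Ccr2, a receptor that defines blood monocytes, was above background on no array. The neutrophil genes S100a8 and S100a9 rose by 1.37 and 1.59, and 4 of 8 neutrophil markers fell, while 2 of 4 microglial markers fell and 0 rose. Also in total RNA, 3 of 5 astrocyte, 2 of 3 endothelial and 2 of 2 Schwann cell markers rose and 0 fell. Of 4 oligodendrocyte markers 0 rose and 0 fell. The part of these cells in the Arg1 result was not tested.

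**Figure D2:**
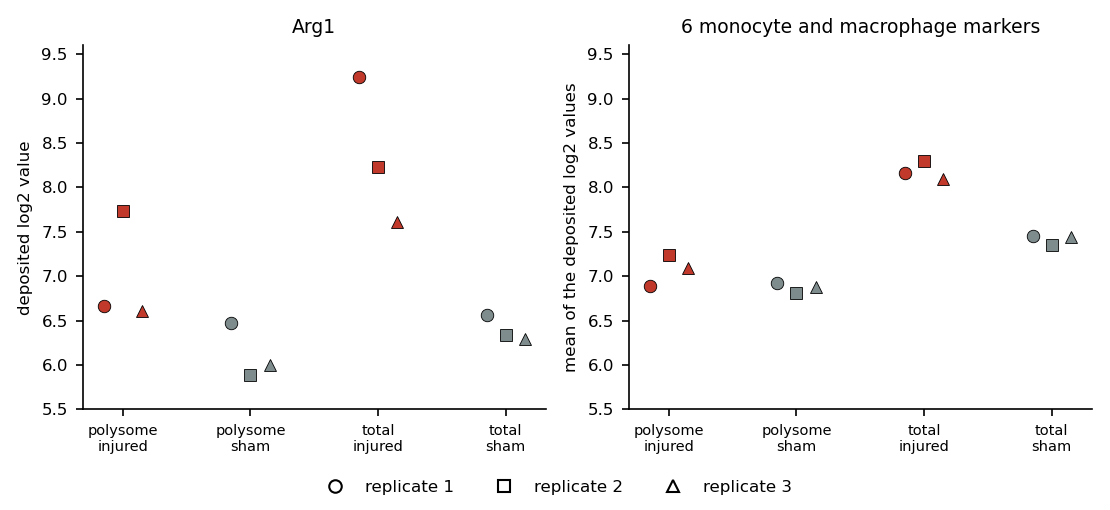
Arg1 (left) and the mean of 6 monocyte and macrophage markers (right), deposited log2 values on each array; shapes give the replicate number, red injured, grey sham. Both are higher on all 3 injured than on all 3 sham total RNA arrays, and on polysomes the highest array of both is injured replicate 2.

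Sprr1a, Sox11 and Cap1 were at or close to background in total RNA. Sprr1a, a cornified-envelope protein that axotomised sensory neurons also make, read 7.03, 6.55 and 6.66 in injured and 6.95, 6.78 and 6.81 in sham total RNA, with a difference of -0.10 (95% confidence interval -0.32 to 0.12, limma adjusted p = 0.423) that was -0.24 and called without injured replicate 1. Sox11, a factor of the SoxC group that drives neurite growth, read 6.44, 6.35 and 6.36 in injured and 6.47, 6.49 and 6.50 in sham total RNA. The groups did not overlap, but the difference of -0.11 (limma adjusted p = 0.0627) lay wholly below the brightest absent-organism control. That control was itself lower on injured than on sham total RNA arrays, by -0.19 on average. Cap1, an actin-monomer recycling protein and a different gene from CAP-23, had differences of -0.12 (limma adjusted p = 0.310) and -0.23 (adjusted p = 0.0114, limma) for its probe sets 1417461_at and 1417462_at. The second, the only probe set of the 12 to fall, was at background on all 12 arrays, and its call was lost without injured replicate 1 or 2 or sham replicate 1 (-0.20 to -0.19).

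On polysomes none of the 12 probe sets rose after injury and 2 fell, Npy and 1 of the 2 Stmn2 probe sets, against 9.39% of all probe sets that rose and 21.5% that fell. The other 10 did not pass the test, and 5 of the 12 had an unadjusted limma p below 0.05. Without overlap between the groups, 3 were higher and 0 lower, against 13.9% and 26.3% of all probe sets. By the limma test neither direction is more common than among all probe sets. The median difference over the 12 was -0.08, against -0.03 over all probe sets.

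Npy read 8.79, 8.74 and 9.21 on injured polysome arrays and 9.35, 9.19 and 9.46 on sham polysome arrays. Injured replicates 1 and 2, the arrays of low weight, were below all sham arrays, and injured replicate 3 lay among them. The fall was -0.42 (SE 0.13, limma adjusted p = 0.0233). The call was lost on leaving out injured polysome replicate 1 or 2 or sham polysome replicate 1 or 3 (-0.41 to -0.33), with array weights (-0.31) or after quantile normalization over all arrays (-0.30). Gal read 8.93, 8.99 and 8.90 on injured and 8.78, 8.65 and 8.88 on sham polysome arrays, without overlap, and its difference of 0.17 did not pass the test (SE 0.09, limma adjusted p = 0.190). With arrays centred on their median it was 0.25 and with quantile normalization within each fraction 0.27, both called. Vip ranged from 7.49 to 7.64 on injured and from 7.51 to 7.78 on sham polysome arrays, a difference of -0.08 (limma adjusted p = 0.462).

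Of the 4 probe sets of growth-cone genes, 1 fell on injured polysomes and 3 did not pass the test. Gap43 read 10.09, 10.75 and 10.54 on injured and 10.72, 10.73 and 10.82 on sham polysome arrays, and injured replicate 2 lay within the range of the sham arrays. Its difference was -0.30 (SE 0.12, limma adjusted p = 0.0673), and it was -0.11 without injured polysome replicate 1 and -0.44, with adjusted p = 0.00401 in limma, without injured polysome replicate 2. Stmn2 probe set 1423280_at read 11.78, 12.26 and 12.07 on injured and 12.20, 12.32 and 12.30 on sham polysome arrays, which overlapped. Its fall of -0.24 (SE 0.09, limma adjusted p = 0.0485) was -0.11 and not called without injured polysome replicate 1, and of the 12 fits that left out 1 array only that without injured polysome replicate 2 called it (-0.35). Probe set 1423281_at differed by -0.08 (limma adjusted p = 0.558). Basp1 read 12.79, 12.93 and 13.06 on injured and 12.93, 13.01 and 12.91 on sham polysome arrays, a difference of -0.02 with a 95% confidence interval of -0.16 to 0.11.

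Arg1 on polysomes read 6.66, 7.73 and 6.61 in injured cord and 6.47, 5.89 and 5.99 in sham cord. All injured arrays were above background and above all sham arrays, and 1 sham array was above background. The difference of 0.88 (SE 0.33, 95% confidence interval 0.18 to 1.58) missed the threshold in limma, with adjusted p = 0.0541, and lay at the 99.6th percentile of all probe sets. It was 0.52 without injured polysome replicate 2, the array that also had the highest mean level of the 6 macrophage markers (7.24, against 6.89 and 7.09 on the other injured and 6.81 to 6.93 on the sham polysome arrays). Under 11 of the 23 alternatives it was called, with 0.88 to 1.31. Sprr1a, Sox11 and both Cap1 probe sets differed by 0.00, 0.08, -0.22 and -0.13, none of them called.

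**Figure D3:**
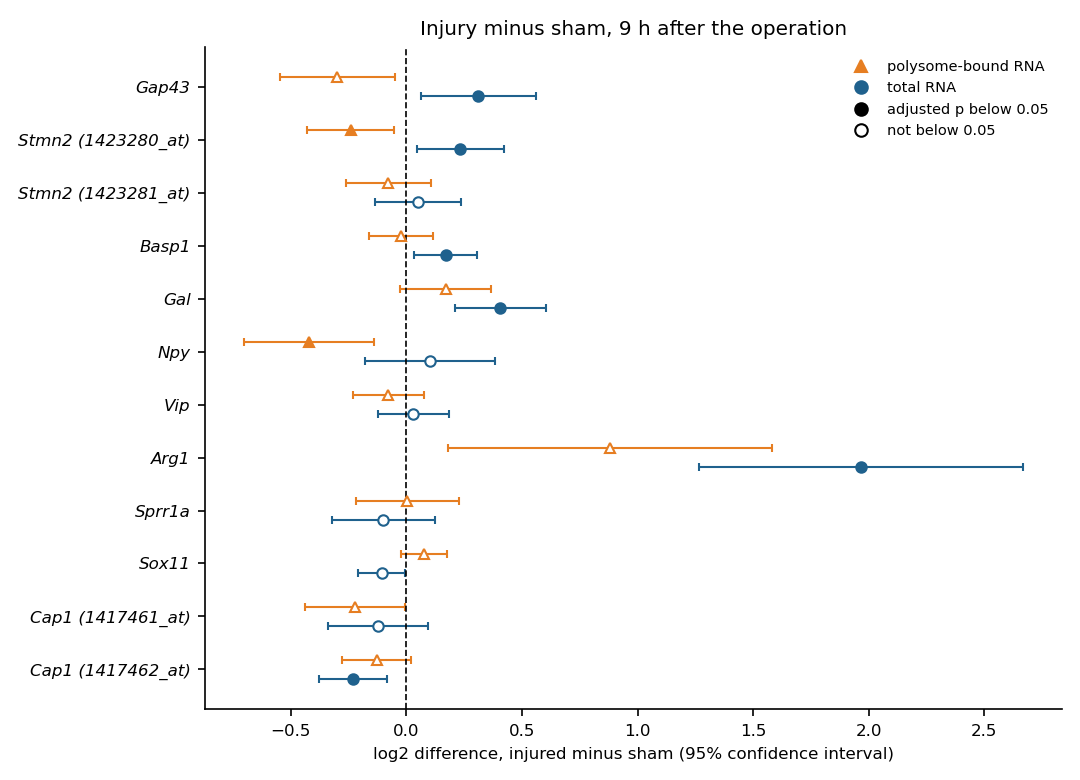
Injury minus sham on polysomes (triangles) and in total RNA (circles) for the 12 probe sets, as log2 differences with 95% confidence intervals; filled symbols have a limma adjusted p below 0.05. Arg1 has the largest difference in both fractions, and Gap43 and Stmn2 probe set 1423280_at lie on opposite sides of 0 in the 2 fractions.

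The injury change on polysomes was tested directly against that in total RNA. Of the 12 probe sets, 3 had a lower change on polysomes, 1 a higher change and 8 no called difference, against 29.9% and 15.5% of all probe sets. Gap43 changed by -0.30 on polysomes and by 0.31 in total RNA, a difference of -0.61 (SE 0.17, limma adjusted p = 0.00858). Stmn2 probe set 1423280_at changed by -0.24 on polysomes and by 0.23 in total RNA, a difference of -0.47 (SE 0.12, limma adjusted p = 0.00676). Both differences were called in every fit that left out 1 array, from -0.75 to -0.43 for Gap43 and from -0.59 to -0.35 for Stmn2. After quantile normalization over all arrays they were -0.23 each and not called.

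Npy changed by -0.42 on polysomes and by 0.10 in total RNA, a difference of -0.52 (SE 0.19, limma adjusted p = 0.0324). It was called in 6 of the 12 fits that left out 1 array, and not without injured polysome replicate 1 (-0.46) or 2 (-0.44), sham polysome replicate 1 (-0.51) or 3 (-0.46), injured total replicate 1 (-0.44) or sham total replicate 2 (-0.38). The probe set with the higher change on polysomes was Sox11 (0.18, SE 0.07, limma adjusted p = 0.0362), which was at background on all arrays and was called in only 5 of those 12 fits. For Arg1 the change was 0.88 on polysomes and 1.97 in total RNA, a difference of -1.09 that missed the threshold (SE 0.46, limma adjusted p = 0.0681). It was called without injured polysome replicate 2 (-1.45) and without injured total replicate 3 (-1.46). For Gal, Basp1, Vip and Stmn2 probe set 1423281_at the differences were -0.24, -0.19, -0.11 and -0.13, none of them called, so that the 2 Stmn2 probe sets gave different calls here as well. A lower change on polysomes was also called for 4 of 8 neuron, 4 of 5 astrocyte and 2 of 2 Schwann cell markers. It was called for 2 of 3 endothelial, 2 of 4 microglial and 2 of 6 monocyte and macrophage markers. Oligodendrocytes had 1 of 4, motor neurons 1 of 5 and keratinocytes 1 of 5. Neutrophils had 0 of 8, skeletal muscle 0 of 4, and dorsal root ganglion neurons and erythroid cells 0 of 2 each. A higher change was called for 3 neuron markers and 1 microglial marker only. Among all genes 32.2% had a lower and 13.0% a higher change. The Gapdh 3′ excess was raised more with injury on polysomes than in total RNA (means above), and its part in these differences was not tested.

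Polysome-bound and total RNA were then compared within each operation. The median probe set differed by -0.42 on polysomes in both injured and sham cord, so a gene's position is given relative to that median as well. In injured cord 2 of the 12 probe sets were higher on polysomes, 8 lower and 2 not called, against 10.5% and 78.5% of all probe sets, and 9 of 12 lay above the median. In sham cord 4 were higher, 4 lower and 4 not called, against 15.2% and 69.7%, and 10 of 12 lay above the median. Of the 7 probe sets of growth-cone and neuropeptide genes, 6 lay above the median in injured cord, all but Npy, and 7 in sham cord. Cap1 probe set 1417461_at was above background on all 6 total RNA arrays and on no injured polysome array. Its difference in injured cord was -0.71 (SE 0.10, limma adjusted p = 8.02e-06), or -0.30 from the median probe set. Set against the lowest signal that counted as above background on those polysome arrays, it was at least 1.47-fold lower in the deposited values. Under the 23 alternatives the difference ran from -0.77 to -0.11 and was called in 21. The 5 probe sets of Arg1, Sprr1a, Sox11 and Cap1 lay at most 0.10 above the median probe set in injured and 0.14 above it in sham cord.

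Basp1 was the most shifted to polysomes of the 10 genes. Its difference between polysome-bound and total RNA was 0.42 in injured cord (SE 0.06, limma adjusted p = 1.53e-05) and 0.62 in sham cord (SE 0.06, limma adjusted p = 2.55e-07), or 0.84 and 1.04 above the median probe set. In neither cord did its polysome arrays overlap the total RNA arrays, and both differences were called under all 23 alternatives. Gal was 0.20 higher on polysomes in injured cord, which was not called (limma adjusted p = 0.0523), and 0.44 higher in sham cord (SE 0.09, limma adjusted p = 0.000392), 0.62 and 0.86 above the median probe set. The 4 group means of Gal ran from 8.33 in sham total RNA through 8.74 in injured total RNA and 8.77 on sham polysomes to 8.94 on injured polysomes, and the middle pair overlapped.

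Gap43 fell by 0.27 on polysomes against total RNA in injured cord (SE 0.12, limma adjusted p = 0.0409) and was 0.34 higher on polysomes in sham cord (SE 0.12, limma adjusted p = 0.0138). Relative to the median probe set both were positive, 0.15 in injured and 0.76 in sham cord, and with arrays centred on their median the injured-cord difference was 0.33. The call in injured cord was lost in 7 of the 12 fits that left out 1 array, and without injured polysome replicate 1 the difference was -0.09. Npy was -0.59 on polysomes against total RNA in injured cord (SE 0.13, limma adjusted p = 0.000566), with no overlap of the arrays, which became 0.0092 with arrays centred on their median, and -0.07 in sham cord (limma adjusted p = 0.633). Vip differed by -0.02 in injured and 0.08 in sham cord, neither called, which is 0.39 and 0.51 above the median probe set.

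Arg1 was the furthest to the total RNA side in injured cord, at -1.37 (SE 0.33, limma adjusted p = 0.00110) or -0.95 from the median probe set, although its polysome arrays (6.61 to 7.73) overlapped the total RNA arrays (7.61 to 9.25). In sham cord, where it was at or near background, its difference was -0.28 (limma adjusted p = 0.433). Stmn2 probe sets 1423280_at and 1423281_at differed by -0.36 and 0.20 between fractions in injured cord, called in opposite directions, and by 0.11 and 0.32 in sham cord, the second called. The call at 0.20 was lost in 11 of the 12 fits that left out 1 array, and with arrays centred on their median the difference of -0.36 became 0.24. Their transcript stretch is not given in the sources used here, and the 3′ excess noted above differed between the fractions too.

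**Figure D4:**
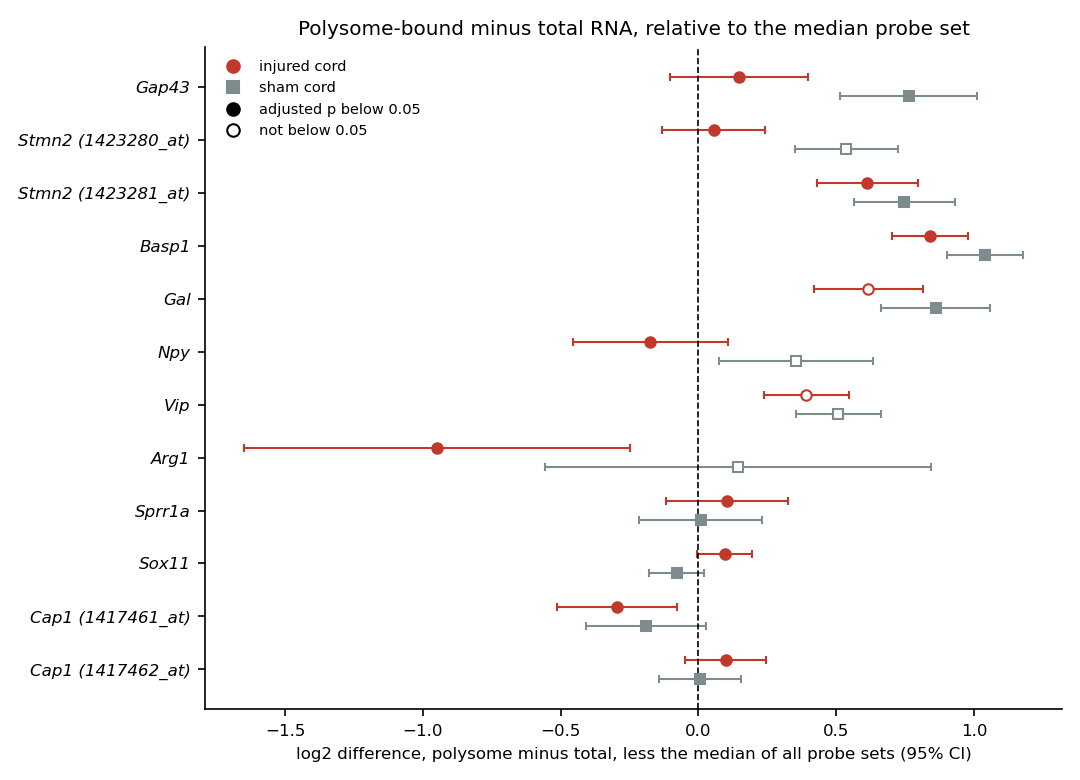
Polysome-bound minus total RNA in injured (red circles) and sham cord (grey squares), log2 difference less the median of all probe sets, with 95% confidence intervals; filled symbols have a limma adjusted p below 0.05 for the difference before that median is taken off. Basp1 lies 0.84 and 1.04 above the median probe set in injured and sham cord, and Arg1 lies at -0.95 in injured cord.

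Genes that share a pathway with these 10 were described from lists, with the brightest probe set standing for a gene. Among 15 other neuropeptide precursors 8 rose and 0 fell in total RNA, against 35.0% and 23.0% of all genes, with a median difference of 0.21 against 0.05 over all genes. Penk, the precursor of enkephalins, rose by 0.70 (SE 0.05), and Adcyap1, the precursor of PACAP, by 0.47 (SE 0.07). On polysomes 2 rose and 6 fell, against 11.0% and 20.3%. Penk rose by 0.24 there, whereas Grp, which encodes gastrin-releasing peptide, and Pnoc, which encodes the nociceptin precursor, were -0.67 and -0.55. The change on polysomes was below that in total RNA for 11 of the 15 and above it for 0, against 32.2% and 13.0% of all genes, with a median of -0.39 against -0.08. Npy had the pattern of Grp and Pnoc, no called change in total RNA and a fall on polysomes, which Cck, Sst, Calcb and Nmu also had. Gal rose in total RNA, as did Penk and Adcyap1. The difference of the injury changes was called for Penk (-0.46) and Adcyap1 (-0.41) but not for Gal (-0.24, limma adjusted p = 0.148). Of 8 receptors for galanin, neuropeptide Y, vasoactive intestinal peptide and PACAP, 4 were above background on 3 or more arrays. In total RNA 0 rose and 3 fell, against 35.0% and 23.0% of all genes, and the falls may include probe sets at background.

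**Figure D5:**
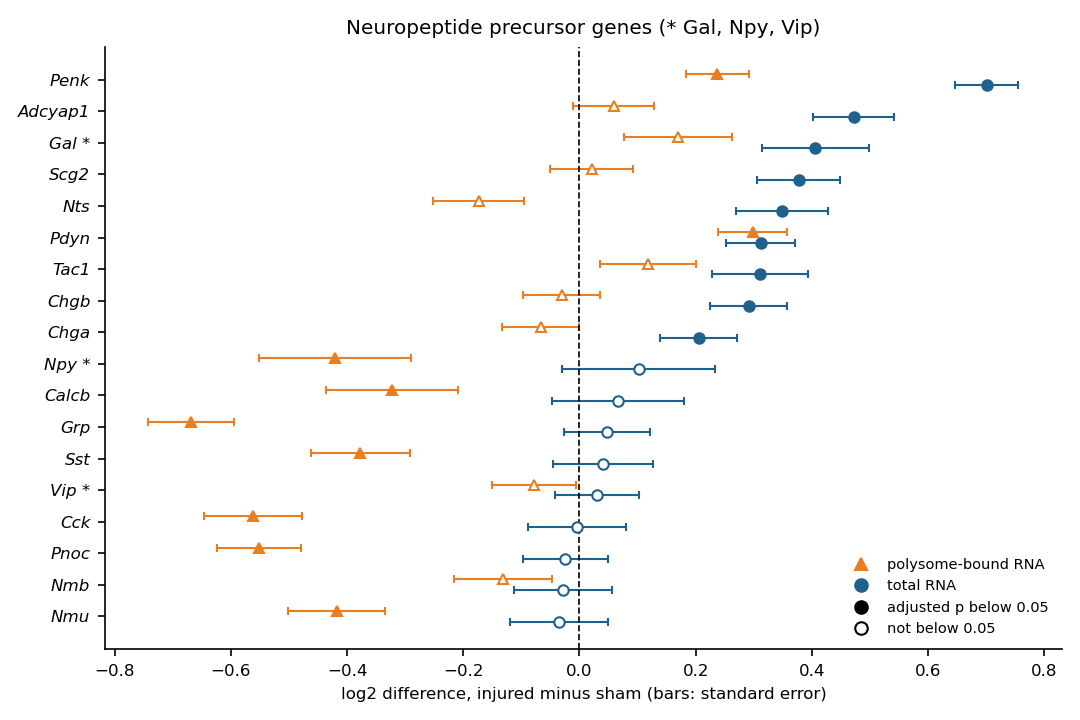
Injury minus sham for Gal, Npy and Vip (asterisks) and 15 other neuropeptide precursors on polysomes (triangles) and in total RNA (circles), log2 differences with standard errors; filled symbols have a limma adjusted p below 0.05. Penk has the largest difference in total RNA (0.70), and Grp and Pnoc are -0.67 and -0.55 on polysomes.

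Among 24 growth-cone and stathmin genes 11 rose and 4 fell in total RNA, against 35.0% and 23.0% of all genes. On polysomes 7 rose and 3 fell, against 11.0% and 20.3%. Marcksl1, a relative of the membrane protein MARCKS, rose by 0.78 (SE 0.09) in total RNA and Dpysl3, which encodes CRMP4, by 0.66 (SE 0.08), whereas Map1b, a microtubule-associated protein of growing axons, was -1.01 (SE 0.13) and Dpysl2, which encodes CRMP2, -0.35 (SE 0.05). Their changes on polysomes were 0.17, 0.19, -0.10 and -0.13, none of them called. Rises of the size of Gap43 and Stmn2 were thus accompanied by both larger rises and falls in genes of the same list. The list's median polysome minus total difference lay 0.75 above that of all probe sets in sham cord and 0.56 above it in injured cord. Other lists lay as high in sham cord, with 0.76 for the neuropeptide precursors and 0.79 for the actin-turnover genes below. The neuropeptide receptors (-0.10) and the epidermal envelope genes below (-0.03) did not. Of these, 4 of 8 and 3 of 10 were above background on 3 or more arrays.

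The list around Arg1, 14 other genes of arginine and polyamine metabolism, had 8 that rose and 2 that fell in total RNA, against 35.0% and 23.0% of all genes. Azin1, an inhibitor of antizyme, rose by 1.00 (SE 0.08), Sat1, the acetyltransferase that breaks down polyamines, by 0.96 (SE 0.12), Odc1, ornithine decarboxylase, by 0.78 (SE 0.10), and Slc7a2, an arginine transporter, by 0.67 (SE 0.08). On polysomes 2 rose, Odc1 by 0.51 (SE 0.10) and Azin1 by 0.23 (SE 0.08), and 2 fell, against 11.0% and 20.3%. Genes that make and that break down polyamines were both among those that rose.

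Around Cap1, 8 of 12 actin-turnover genes rose and 1 fell in total RNA, against 35.0% and 23.0% of all genes, and 2 rose and 2 fell on polysomes, against 11.0% and 20.3%. Wdr1, a cofilin partner, rose by 0.71 (SE 0.09), Pfn1, profilin, by 0.62 (SE 0.09) and Cfl1, cofilin, by 0.35 (SE 0.06), and Actb was -0.66 (SE 0.09). Cfl1 also rose on polysomes, by 0.21 (SE 0.06). Of the relatives of Sox11, Sox4 rose by 0.47 in total RNA (SE 0.06) and Sox12 was -0.19 (SE 0.06), and neither passed the test on polysomes. Of 10 epidermal envelope genes related to Sprr1a only 3 were above background on 3 or more arrays. In total RNA 1 rose and 6 fell, against 35.0% and 23.0% of all genes, so the falls include probe sets at background. The list's median difference was -0.17, and the brightest absent-organism control was itself lower on injured total RNA arrays, by -0.19 on average. The part of that shift in the falls was not tested. On polysomes 1 rose and 0 fell. Tgm1, the keratinocyte transglutaminase, rose by 0.38 in total RNA (SE 0.08) and by 0.50 on polysomes (SE 0.08), while 0 of 5 keratinocyte markers rose and 2 fell in both fractions.

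Transcription factors, cytokine-signalling genes and other genes known to act in regeneration were described in the same way. Adcyap1 is in this list and in that of the neuropeptide precursors. Of 21, 18 rose and 2 fell in total RNA, against 35.0% and 23.0% of all genes, and 15 rose and 3 fell on polysomes, against 11.0% and 20.3%. Hspb1, a small heat shock protein that protects injured neurons, rose by 2.87 in total RNA and by 2.00 on polysomes, and Cebpd, a factor of the C/EBP family, rose by 2.60 in total RNA and by 2.64 on polysomes. Their median difference was 0.44 on polysomes and 0.71 in total RNA. At 9 hours none of the growth-cone or neuropeptide genes among the 10 had a difference as large as those medians in either fraction. The list was chosen with earlier results of these data known, so its medians are not an independent yardstick.

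The genes whose pattern over the 12 arrays was most like that of a regeneration gene were found by the root mean square difference after centring each probe set on its own mean, among 15427 probe sets above background on 3 or more arrays. For Arg1 these were Tgm2, Igfbp3 and Ccn2, at 0.276, 0.283 and 0.289 log2 units. They rose by 1.83, 1.96 and 1.83 in total RNA. For Gal they were Arfgef1, Nop56 and Foxj3, at 0.078, 0.084 and 0.085. For Gap43 they were Bpgm, Rit2 and Dpm1, at 0.066, 0.070 and 0.075, and their injury differences were -0.27, -0.34 and -0.42 on polysomes and 0.43, 0.34 and 0.30 in total RNA. For Stmn2 the nearest was Rdh14, at 0.034.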

How the data were processed

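The values are log2 expression values per probe set and array, as the authors deposited them; the scale was read from their range of 5.26 to 14.65, and the background correction and normalization are not given in the sources used here. Per the labels, biotinylated cRNA was made in 1 cycle from 5 µg of total or 3 µg of polysome-bound RNA. Of 22690 probe sets, the 20380 that name a single gene were analysed; 691 carry several names and 1619 carry none, of which 64 are controls. Symbols are those of the array annotation, and 20351 match RefSeq GRCm38.p6.

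A mean for each of the 4 groups was fitted with limma 3.58.1 (R 4.3.3, trend in eBayes, 8 residual and 15.1 moderated degrees of freedom) to all 20380 probe sets, without a filter, so that every probe set of the 10 genes was tested. p-values are two-sided and were adjusted by Benjamini-Hochberg over all probe sets of a comparison, with a threshold of 0.05. Errors are limma standard errors, and precision is limited by 3 arrays a group. They rest on a spread shared by all 4 groups, so scatter on the injured polysome arrays enters the total RNA tests too. With only the 2 compared groups fitted, 12968 probe sets instead of 11746 were called in total RNA and 4505 instead of 6290 on polysomes. Tested on simulated arrays of the same spread, the total RNA comparison recovered 30% of changes of 0.25, 88% of 0.5, 98% of 1 and 100% of 2 log2 units, with 50 probe sets of each size changed among 20380 and 4.24% of its calls false; far fewer were changed there than were called in the data. The 10 genes, the lists and the markers were chosen with earlier results of these data known. Named genes are the 10, the 3 nearest in pattern to each with a call after injury, and from each list up to 4, ranked by adjusted p.

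Replicate numbers are shared by the groups. Equal numbers deviated together in sham cord between the fractions (correlations of 0.16, 0.15 and 0.12 across probe sets), where the block changed no call for the 10 genes, and not in the other comparisons (-0.22 to 0.065), so no block was used. Per the labels' protocols both fractions come from a homogenate, but no label ties the numbers. The alternatives were a filter, 1 probe set per gene, 3 rescalings, array weights, 2 ways of blocking on the replicate number, no trend, the compared groups alone and each array left out; centring on the hybridisation controls was chosen after seeing the data.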

Additional observations from a re-analysis of the deposited data

Results flagged for a closer look

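The injury change on polysomes differed from that in total RNA, by the test of the difference itself, for 4 of the 12 probe sets. The differences were -0.61 for Gap43 (SE 0.17, limma adjusted p = 0.00858), -0.47 for Stmn2 probe set 1423280_at (SE 0.12, limma adjusted p = 0.00676), -0.52 for Npy (SE 0.19, limma adjusted p = 0.0324) and 0.18 for Sox11 (SE 0.07, limma adjusted p = 0.0362). Among all probe sets 29.9% had a lower and 15.5% a higher change on polysomes by this test. None of the 4 passed it after quantile normalization, Npy depended on 6 single arrays as given with its result, and Sox11 was at background on all arrays.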

How the results depend on the processing

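Of 1348 pairs of a probe set's result and an alternative, 1122 kept their direction and their side of the threshold, 102 kept their direction and were no longer called, 47 kept it and became called, and 77 changed sign, 43 of these with neither value called. The rises of Arg1 and Gal in total RNA and the excess of Basp1 on polysomes in both cords were called under all 23 alternatives.

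Scaling mattered most. Under quantile normalization over all arrays or within each fraction, 3 probe sets instead of 6 were called in total RNA and 0 instead of 4 for the difference of the injury changes. Over all arrays it called 3 instead of 8 between fractions in sham cord and 6 instead of 10 in injured cord. Signs turned in total RNA for Stmn2 (-0.0029 and -0.0028 for 1423280_at, -0.22 and -0.21 for 1423281_at) and Basp1 (-0.068 and -0.062), Npy (-0.14 and -0.12), Sprr1a (0.033 and 0.035) and Sox11 (0.019 and 0.021), on polysomes for Vip (0.027 and 0.030), and for the difference of the injury changes for Stmn2 1423281_at (0.18 and 0.17) and Cap1 1417462_at (-0.034 and -0.018). Between fractions they turned within each fraction for Vip in injured cord (0.026) and Stmn2 1423280_at in sham cord (-0.010), and over all arrays in injured cord for Sprr1a (0.19), Vip (0.56), Sox11 (0.11) and Cap1 1417462_at (0.11), and in sham cord for Sprr1a (0.18), Sox11 (0.038), Arg1 (0.25), Stmn2 1423280_at (-0.067) and Cap1 1417462_at (0.14).

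Centring arrays on their median called 4 probe sets on polysomes instead of 2 (3 higher, 1 lower). It turned the sign between fractions in injured cord for Gap43 (0.33), Sprr1a (0.29), Npy (0.0092), Vip (0.58), Sox11 (0.28), Stmn2 1423280_at (0.24) and Cap1 1417462_at (0.28), and in sham cord for Sprr1a (0.077), Npy (0.43), Arg1 (0.21) and Cap1 1417462_at (0.075). On polysomes it turned Vip (0.0062), Stmn2 1423281_at (0.0077) and Basp1 (0.061), and for the difference of the injury changes Cap1 1417461_at (0.0084). By construction it takes off the difference in medians of the fractions.

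Centring on the hybridisation controls moved the median of all probe sets to 0.40 on polysomes and 0.55 in total RNA after injury and called 9 and 12 of the 12 as higher. Signs turned on polysomes for Gap43 (0.13), Npy (0.011), Vip (0.35), Stmn2 (0.19 and 0.35), Basp1 (0.41) and Cap1 (0.21 and 0.30), and in total RNA for Sprr1a (0.45), Sox11 (0.44) and Cap1 (0.42 and 0.32). All of these but Basp1 lie below those medians. Signs also turned for the difference of the injury changes for Sprr1a (-0.012) and Cap1 1417462_at (-0.014), and between fractions for Vip in injured cord (0.048) and Npy in sham cord (0.12). Over all probe sets it called 16765 on polysomes instead of 6290 and 19368 in total RNA.

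On polysomes array weights and a fit without trend called 1 probe set each, and with the weights Sprr1a (-0.022) and Basp1 (0.039) changed sign there. With the replicate block the count on polysomes was 4 (1 higher, 3 lower): Arg1 (0.88, limma adjusted p = 0.0343) and Cap1 1417461_at joined, and the numbers are not paired there by the correlations. It also called the difference of the injury changes of Arg1 (limma adjusted p = 0.0458) and changed no other call. Leaving out 1 array gave 3 to 7 calls in total RNA, 1 to 2 on polysomes, 2 to 5 for the difference of the injury changes, 8 between fractions in sham cord and 8 to 9 in injured cord. The lowest counts came on leaving out injured replicate 3, sham replicate 1 or sham replicate 2 in total RNA, and injured polysome replicate 1 or sham total replicate 2 for the difference of the injury changes; on polysomes 7 of the 12 arrays gave 1 call. These fits spanned 0 on polysomes for Sprr1a (-0.062 to 0.10), Stmn2 1423281_at (-0.16 to 0.052) and Basp1 (-0.089 to 0.044), in total RNA for Npy (-0.036 to 0.19) and Vip (-0.0074 to 0.076), for the difference of the injury changes for Stmn2 1423281_at (-0.21 to 0.0020) and Cap1 1417461_at (-0.22 to 0.058), and between fractions for Vip in injured cord (-0.070 to 0.013) and Npy in sham cord (-0.21 to 0.017). Over all probe sets, quantile normalization over all arrays called 7379 in total RNA instead of 11746 and 5939 instead of 9248 for the difference of the injury changes, and within each fraction 7098 and 5923. Under quantile normalization over all arrays, within each fraction and centring on the median, the share of calls that were higher was 49.1%, 49.4% and 55.9% on polysomes (30.4% as deposited), and 48.1%, 48.6% and 55.6% for the difference of the injury changes (34.1%). Over all arrays and after centring it was 53.5% and 71.5% between fractions in injured cord (11.8%) and 52.7% and 64.2% in sham cord (17.9%). Centred on the hybridisation controls it was 97.6% on polysomes, 99.0% in total RNA (53.2%), 7.47% for the difference of the injury changes and 28.1% between fractions in sham cord. The causes of these changes were not tested.

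Signal near background limits what Sprr1a, Sox11 and Cap1 probe set 1417462_at can show, and Cap1 probe set 1417461_at on polysomes. With 3 arrays a group precision is limited, and changes of 0.25 were recovered in 30% of simulated cases. Far fewer probe sets were changed there than were called in the data, which alters the adjusted p. That share therefore does not carry over to the changes of Stmn2 and Basp1 here. The same RNA shows a stronger 3′ excess after injury in both fractions, which the design does not separate from the operation.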

Other observations

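The order of the 4 groups differed among the regeneration genes. Stmn2 probe set 1423280_at was highest in injured total RNA (12.39) and lowest on injured polysomes (12.03), with sham polysomes (12.27) and sham total RNA (12.16) between them, and of the neighbours in this order only injured polysomes and sham total RNA overlapped. Gap43 ran from sham total RNA (10.42) through injured polysomes (10.46) and injured total RNA (10.73) to sham polysomes (10.76), and every neighbouring pair overlapped. Basp1 ran from sham total RNA (12.33) through injured total RNA (12.50) and injured polysomes (12.93) to sham polysomes (12.95), and only the polysome groups overlapped.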
